A study of Mus musculus with 4 samples.

Results

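Antibody binding to UV photoproducts was examined on designed DNA probes whose 4 varied bases, here called the core, were 2 purines followed by 2 pyrimidines. The probes were chosen by name: the last 4 letters of a name give the core, and the first 2 of them had to be A or G and the last 2 T or C. The rule used no measured value. All 16 such cores were present in each of 21 libraries, which gave 336 of the 5376 names with 4 varied bases and of the 6126 names on the array. The 336 probes held 336 distinct sequences, of which 48 were printed under a second name as well.

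UV-Bind, the assay used, places a protein or an antibody on an array of DNA spots that was or was not irradiated and reads the bound amount by fluorescence. The groups were a CPD non-UV array and a CPD UV array, with a mouse antibody against the cyclobutane pyrimidine dimer diluted 1 in 400, and a 6-4PP non-UV array and a 6-4PP UV array, with a mouse antibody against the 6-4 photoproduct diluted 1 in 80. Each group was 1 array, so a comparison between arrays has no replicate check. The arrays were sorted by the condition field of the labels, while each 6-4PP array has a title that names the other condition. Neither the UV dose nor the scanner settings are stated in the labels or the file headers.

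UV light links neighbouring pyrimidines on a DNA strand. The cyclobutane pyrimidine dimer, or CPD, joins them through a cyclobutane ring and forms most readily at TT. The 6-4 photoproduct, or 6-4PP, joins them through a single bond that bends the DNA more strongly, and is known for forming well at TC as well as TT. Because the product needs pyrimidines on the same strand, a stretch of purines on the listed strand is a site on the opposite strand.

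In a core of this kind, the last 2 bases are a dipyrimidine step on the listed strand, as the file gives it, and the first 2 bases are read as a dipyrimidine step on the opposite strand. The core AATC thus holds TC on the listed strand and TT on the opposite strand. Every combination of TT, TC, CT and CC on the listed strand with TT, TC, CT and CC on the opposite strand occurs as 1 core. The purine just before the listed step is A where the opposite step starts with T and G where it starts with C, so the opposite type and this neighbouring base cannot be told apart.

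The following probes show the design, in lower case with the core in capitals, 5′ to 3′ on the listed strand. The first 4 are the cores with the same type on both strands in the library TBP_E60, and they carry the ends of the signal range.
TBP_E60_AATT: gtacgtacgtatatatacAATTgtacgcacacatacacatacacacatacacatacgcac
TBP_E60_GATC: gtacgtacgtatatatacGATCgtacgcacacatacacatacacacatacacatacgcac
TBP_E60_AGCT: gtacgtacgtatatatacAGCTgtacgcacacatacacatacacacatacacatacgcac
TBP_E60_GGCC: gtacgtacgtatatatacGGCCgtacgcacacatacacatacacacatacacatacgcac
Outside the core these probes alternate between purines and pyrimidines, so their only dipyrimidines lie in the core.

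The bases next to the core decide whether its pyrimidine tracts end there. In TBP_E60 the base before the core is c and the base after it is g, so the tract on each strand is 2 bases long. The next 3 probes keep the core AGCT and lengthen the tract on the listed strand, on the opposite strand, or on both.
TBP_E59_AGCT: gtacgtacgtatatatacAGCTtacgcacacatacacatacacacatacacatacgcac
TBP_59_AGCT: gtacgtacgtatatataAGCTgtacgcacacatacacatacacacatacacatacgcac
TBP_60_AGCT: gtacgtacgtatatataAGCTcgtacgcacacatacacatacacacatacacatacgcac
In TBP_E59 the t after the core makes the listed tract CTt, with 2 listed steps and 1 opposite step. In TBP_59 the a before the core extends the opposite tract, with 1 listed step and 2 opposite steps. In TBP_60 both outer bases extend a tract, with 2 steps on each strand.

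By this measure the libraries fell into 4 classes: neither tract extended (6 libraries, 96 probes), listed tract extended (4 libraries, 64 probes), opposite tract extended (4 libraries, 64 probes) and both tracts extended (7 libraries, 112 probes). The MITF and p53 libraries carried the same cores on other backbones, shown here for the brightest core of the 6-4PP antibody.
MITF_Ex_ebox_60_GATC: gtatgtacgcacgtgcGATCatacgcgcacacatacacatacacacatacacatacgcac
p53_E60_GATC: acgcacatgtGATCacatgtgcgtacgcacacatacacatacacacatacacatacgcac
The core stood at bases 17 to 20 of the first and at bases 11 to 14 of the second. MITF, TBP and p53 are transcription factors whose binding sites the backbones were built on, and libraries named mut or MUT hold a changed site.

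The value of a probe was the median intensity of its unflagged spots, at most 10 spots per array. Log2 intensity had a median SD over the spots of a probe of 0.22 for CPD without UV, 0.58 for CPD with UV, 0.15 for 6-4PP without UV and 0.25 for 6-4PP with UV. Between probes the SD was 0.78 for CPD with UV and 1.17 for 6-4PP with UV. Intensity ended at 65535, and 50 of the 336 probes had their median at this ceiling with 6-4PP after UV and 0 with CPD. A value at the ceiling is a lower bound, and a difference from it is at least the size given.

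With the CPD antibody the 336 probes ran from 25.5 to 58.5 without UV, with a median of 31, and from 1294 to 17512 with UV, with a median of 4484. With the 6-4PP antibody they ran from 32 to 82 without UV, with a median of 57, and from 4311 to 65535 with UV, with a median of 23346. All 336 were brighter on the UV array than on the non-UV array of the same antibody, with no overlap. The same count over all names was not taken. The rise was not particular to these probes. The median of the 214 names without a dipyrimidine was 28 without and 2336.5 with UV for CPD. For 6-4PP it was 53 and 4825. The median log2 gain with UV was 7.19 for CPD, against 7.14 over all 6126 names, and 8.67 for 6-4PP, against 8.17 over all names.

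A probe was counted as above background where its median exceeded the 95th percentile of the 214 names without a dipyrimidine on the same array, a level of 3728 for CPD with UV and 6738 for 6-4PP with UV. On the 6-4PP UV array 307 of the 336 probes were above it, against 87.7% of all names. On the CPD UV array 209 were above it, against 57.5% of all names. On the non-UV arrays the level was exceeded by 156 probes with CPD, against 35.4% of all names, and by 81 with 6-4PP, against 24.1%. The members' shares on the 6-4PP arrays, 91.4% with UV and 24.1% without, lay near those of all names.

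The 2 antibodies left other cores below the background. On the CPD UV array GGCC, with CC on both strands, was above background in 0 of 21 libraries, GACC in 2 and GGTC in 3. The core AATT, with TT on both strands, was above it in all 21, as were AGTT and GATT, which have TT on the listed strand. On the 6-4PP UV array the 4 cores made of CT and CC alone fell short most often. GGCT was above background in 13 libraries, GGCC in 14, AGCT in 15 and AGCC in 16. AACT was above it in 18 libraries, and the other 11 cores were above it in all 21.

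The plainest comparison of types used the 6 libraries with neither tract extended, where each strand held 1 step. With the CPD antibody AATT was the brightest core, with a median over these libraries of 11399 (range 9763.5 to 12619). GATT, with TT on the listed and TC on the opposite strand, followed at 9229 (8715 to 9882.5), and its range overlapped that of AATT. The next were AATC at 6364 (4483 to 6755.5), GGTT at 6362 (5136 to 7553.5) and AGTT at 6164 (5419.5 to 8201.5), which overlapped one another. The dimmest was GGCC at 1852 (1544 to 2418), below GGCT at 2105 (1814 to 2707) and AGCC at 2369 (1731.5 to 2940.5), and these ranges overlapped as well. AATT was 6.16 times as bright as GGCC, and their ranges over libraries did not overlap. Such ranges are between probe designs on 1 array and are not replicate error.

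With the 6-4PP antibody the order of the same probes was another. GATC, with TC on both strands, had its median at the ceiling of 65535 in all 6 libraries. AATC followed at 46082 (27385 to 51140) and GATT at 39597 (28542 to 64658), both with TC on 1 strand and TT on the other, and their ranges overlapped. AATT came next at 19430 (14225 to 28944.5), which overlapped AATC and GATT only at the top of its range. The other 12 cores had medians between 4789 and 10851. GGTC, GACC and AGTC, with TC on 1 strand and CC or CT on the other, were at 10851, 10750 and 10082.

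The core AGCT, with CT on both strands, was the dimmest at 4789 (4311 to 6728) and exceeded the background level in 0 of the 6 libraries. GATC was thus at least 13.7 times as bright as AGCT, although both cores hold A, G, C and T once. TC and CT are the same bases in the other order, but the purine before the step also differed, A in GATC and G in AGCT. This pair of cores alone thus cannot separate the order of C and T from the neighbouring base. With the purines kept and only the listed step exchanged, GACT was at 9233 (7961 to 10991.5), below GATC. AGTC was at 10082.5 (8106 to 11759), above AGCT, and in neither case did the ranges overlap. With the CPD antibody the same cores had medians of 4300 (2390 to 6073) for GATC and 2445 (2028.5 to 3414.5) for AGCT, and their ranges overlapped.

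The TBP_E60 probes printed above show this on all 4 arrays. For TBP_E60_GATC the medians were 27.5 for CPD without UV, 3646 for CPD with UV, 57.5 for 6-4PP without UV and 65535 for 6-4PP with UV, where 7 of its 10 spots were at the ceiling. For TBP_E60_AGCT they were 29, 2415, 60 and 4830, in the same order of arrays. For TBP_E60_AATT they were 35.5, 12619, 59.5 and 17038. The AATT probe was thus the brightest of the 4 with CPD and the GATC probe with 6-4PP, while on the 6-4PP non-UV array all 4 lay between 52 and 60. TBP_E60_GGCC gave 32.5, 1544, 52 and 5760.

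The effect of a type on a strand was taken within each library, as the mean of log2 intensity over the 4 cores that hold it, minus the mean over the 4 cores with CC on that strand. In the 6 libraries with neither tract extended, CPD signal with TT on the listed strand was above that with CC by 1.67 ± 0.21 (SD over 6 libraries), with TC by 0.66 ± 0.19 and with CT by 0.30 ± 0.15. On the opposite strand the differences were 0.96 ± 0.11 for TT, 0.61 ± 0.19 for TC and 0.23 ± 0.07 for CT. All 6 libraries had all of these differences above 0. TT was the largest on both strands, and its listed effect exceeded its opposite effect in all 6 libraries, by 0.72 ± 0.18. For TC and CT the 2 strands differed by 0.04 ± 0.16 and 0.07 ± 0.17, less than their spread over libraries.

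With 6-4PP and the same libraries, TC was 1.53 ± 0.10 above CC on the listed strand and 1.57 ± 0.08 on the opposite strand. TT was 1.03 ± 0.14 above CC on the listed strand and 1.01 ± 0.17 on the opposite strand. The strands differed by -0.04 ± 0.14 for TC and 0.02 ± 0.16 for TT, with libraries on both sides of 0. CT minus CC was -0.32 ± 0.14 on the listed strand, below 0 in all 6 libraries, and -0.11 ± 0.10 on the opposite strand, below 0 in 5 of 6. For CT the strands differed by -0.21 ± 0.15, below 0 in all 6 libraries. The TC values are lower bounds in part, since GATC was at the ceiling. The CT and CC means hold dim cores, since AGCT and GGCT were above background in 0 of 6 libraries.

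Over all 21 libraries, in which tract length also varies, the CPD order on the listed strand was TT at 1.52 ± 0.31 above CC, CT at 0.62 ± 0.47 and TC at 0.50 ± 0.22. The order of TC and CT turned between classes: TC minus CT was 0.36 ± 0.11 with neither tract extended and -0.99 ± 0.21 with the listed tract extended, with every library of each class on that side. In the libraries with the listed tract extended, a t follows the core, so that a listed CT became CTt and held TT as well. With 6-4PP, listed TC minus CT was 1.85 ± 0.20 with neither tract extended and -1.01 ± 0.18 with the listed tract extended, again with every library on that side. A type effect over all 21 libraries therefore joins the core with its neighbours.

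On the non-UV arrays the effects over all 21 libraries were smaller. On the CPD non-UV array TT was 0.32 ± 0.15 above CC on the listed strand and 0.14 ± 0.09 on the opposite strand. On the 6-4PP non-UV array TT was 0.03 ± 0.07 above CC on the listed strand, less than its spread over libraries, and 0.08 ± 0.08 on the opposite strand, above 0 in 20 of 21 libraries. CT on the listed strand was 0.06 ± 0.06 above CC there, above 0 in 19 of 21. The 16 cores had medians over libraries between 28 and 39 on the CPD non-UV array and between 54.5 and 60 on the 6-4PP non-UV array.

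Whether the steps on the 2 strands add on the log2 scale was read from what remained of each core after its listed and opposite means were taken away. With CPD and neither tract extended, the mean remainders of the 16 cores lay between -0.11 and 0.17 and made up 5.0% of the variance within libraries. With 6-4PP they made up 11.1% and formed a pattern. GATC was 0.54 ± 0.16 (SD over 6 libraries) above its strand means even at the ceiling, AATC 0.43 ± 0.14 and GATT 0.35 ± 0.19, each in 6 of 6 libraries. Cores that joined TC on 1 strand with CT or CC on the other were below their strand means in all 6 libraries, from -0.44 for GACT to -0.50 for AGTC. Cores of CT and CC alone were above them, from 0.24 for GGCC to 0.36 for AGCT. Within a library the remainders sum to 0 over the 4 cores of each type on a strand. The signs of these groups are thus tied to those of the first cores and are not separate results. These cores lay near background in this class. AGCT and GGCT exceeded its level in 0 of 6 libraries, and AGCC and GGCC in 1 of 6 each. An effect of this low level on their remainders was not tested.

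The remainder of GATC was 0.49 ± 0.03 with the listed tract extended and 0.65 ± 0.07 with the opposite tract extended, and that of AGCT 0.26 and 0.33. Ceiling values enter these strand means too. GATT was at the ceiling in 3 of 4 libraries of the first class, and AATC and GATC in 2 of 4 each of the other. With both tracts extended, 37 of 112 probes were at the ceiling and enter the strand means, so no remainder is given. Adding on the linear scale was not tested.

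Exchanging the strands compares listed with opposite position, and does so directly only where both probes hold steps of the same types in the same numbers. The reverse complement of such a core is a core of the same kind, so AACC, with listed CC and opposite TT, has GGTT as its mirror in the same library. There were 126 such pairs, besides 4 cores that are their own mirror. The log2 intensities of their replicate spots were compared by an exact permutation test, two-sided, with Benjamini-Hochberg adjustment over all 2520 mirror pairs of the array and a threshold of 0.05. The test compares spots of 1 array and not conditions. On the CPD UV array 45 of the 126 pairs passed, against 30.9% of all mirror pairs. On the 6-4PP UV array 73 passed, against 69.9%. In 86 of the 126 pairs both probes held steps of the same types in the same numbers. Of these 21 passed with CPD and 33 with 6-4PP on the UV arrays. Of the other 40 pairs, 24 and 40 passed. The shares over all mirror pairs of each kind were not taken. On the non-UV arrays 14 passed with CPD, against 19.7%, and 15 with 6-4PP, against 18.9%. With the deposited spatial adjustment 75 pairs passed on the CPD UV array, against 53.3% of all mirror pairs.

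With CPD the probe with TT on the listed strand was the brighter of its pair in most libraries. AACC was below GGTT in 18 of 21 libraries, with a median difference of -0.74 and 11 pairs past the threshold in this direction. In TBP_60 the pair passed the other way, with AACC at 6322 and GGTT at 4498, a difference of 0.49 with an adjusted p of 0.0128 by the exact permutation test. There the a before the core made the opposite tract of AACC TTt, while the listed tract of GGTT was TTc. These 2 probes thus did not hold the same types. AATC was below GATT in 20 of 21 libraries, with a median of -0.58, and AACT below AGTT in 18 of 21, with a median of -0.46. In this direction 14 and 7 of these pairs passed, and 0 in the other. Of the 45 pairs called, 40 had the second probe, in this alphabetical order, brighter. Over all mirror pairs of the array 578 of the 779 called did, so this direction was not particular to these cores. The share called, 35.7%, was also near the 30.9% of all mirror pairs. The pair of GACC and GGTC, which exchanges TC and CC, had a median of -0.04 and 1 pair past the threshold. On the CPD non-UV array 94 of the 126 pairs were also below 0. Of the 14 pairs called there, 12 had the second probe brighter, and over all mirror pairs 408 of 496.

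In the libraries with neither tract extended, 10 of 36 CPD pairs passed, and all were among these 3 pairings of TT with another type. TBP_E60_AACC had 2894 and TBP_E60_GGTT 6449, a difference of -1.16 with an adjusted p of 0.00054 by the exact permutation test over 10 spots each. With 6-4PP 8 of the 36 passed, with a median difference of 0.01 over the 36 and a range from -0.53 to 0.51. For neither antibody was the share over all mirror pairs of these libraries taken. TBP_E60_AATC had 31930 and TBP_E60_GATT 30286 on that array, a difference of 0.08 with an adjusted p of 0.89 by the exact permutation test. At 10 spots each, these data do not separate the 2 probes. On the CPD UV array the same probes had 6756 and 9252, a difference of -0.45 with an adjusted p of 0.00985 by the exact permutation test. They also differed on the CPD non-UV array, at 30 and 42. That difference was -0.49 with an adjusted p of 0.00465 by the exact permutation test.

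Where only 1 tract was extended, a mirror exchange also changed the type in the longer tract, and most 6-4PP pairs differed. With the listed tract extended 22 of 24 pairs passed, and with the opposite tract extended 21 of 24, against 22 of 42 with both extended. The shares over all mirror pairs of each class were not taken, and over all libraries 69.9% passed. In 9 of these 42 pairs both probes had their median at the ceiling, so a difference there could hardly be seen. Of the 22 called, 21 had the second probe brighter. The largest difference was that of TBP_E59_AGTC, at 8822 ± 2333 (SD, 10 spots), and TBP_E59_GACT, at 58759 ± 12581 (SD, 10 spots, 4 at the ceiling). It was -2.74 on the log2 scale, with an adjusted p of 3.6e-05 by the exact permutation test. This was the lowest adjusted p among these 126 pairs on that array, and other pairs shared it.
TBP_E59_AGTC: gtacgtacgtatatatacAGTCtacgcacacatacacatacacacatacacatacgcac
TBP_E59_GACT: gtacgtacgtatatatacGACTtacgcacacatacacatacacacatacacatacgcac
The listed tract read TCt in the first and CTt in the second, and the opposite step was CT in the first and TC in the second. The same pair was also the largest on the CPD UV array, at 2678 ± 975 and 8935 ± 2073, a difference of -1.74 with an adjusted p of 0.000218 by the exact permutation test.

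In MITF_ebox_59 the longer tract was on the opposite strand, and the pair stood the other way round. MITF_ebox_59_AGTC had 60968 ± 6929 and MITF_ebox_59_GACT 10025 ± 2518 on the 6-4PP UV array, a difference of 2.60 with an adjusted p of 3.6e-05 by the exact permutation test. MITF_sebox_59 gave 48118 and 9612 for the same cores, a difference of 2.32. In all 3 libraries the brighter probe was the one with CT in the longer tract and TC on the other strand. With CPD the next largest mirror pairs were TBP_MUT_E59_AGCC and TBP_MUT_E59_GGCT, at 2758 and 8620, and TBP_59_AGCC and TBP_59_GGCT, at 6320 and 2288. Their differences were -1.64 and 1.47, and in both the probe with CT in the longer tract was the brighter.

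The same point was measured by comparing libraries that carry a core on the same backbone but differ in 1 outer base. This comparison was chosen after the files had been seen. Leaving out the purine after the core, as from TBP_E60 to TBP_E59, put a t behind the listed tract. It also shortened the probe from 60 to 59 bases. Of 64 pairs on the CPD UV array, 29 were brighter with the added t, against 25.3% of all 1024 such pairs, and 0 were dimmer, against 6.45%. The same exact permutation test was used, adjusted over the 1024 pairs of a comparison. With the deposited spatial adjustment 48 were brighter, against 44.5% of all pairs, and 0 dimmer.

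All 16 pairs with a listed CT passed, with a median difference of 1.59 (range 0.72 to 2.20). In these pairs CT became CTt and gained a TT step, while the probe length changed as well. Shares by type over all pairs were not taken, here or in the comparisons with c and with the opposite tract. Of the 16 pairs with a listed TT 12 passed, with a median of 0.56. With a listed TC 1 of 16 passed, at a median of 0.18, and with a listed CC 0 of 16 passed, at a median of 0.50. AGCT rose in all 4 library pairs, from 2415 ± 526 (SD, 10 spots) in TBP_E60 to 9064 ± 1491 (SD, 10 spots) in TBP_E59, with differences from 1.62 to 1.98 over the 4. The adjusted p for the TBP_E60 pair was 0.00013 by the exact permutation test.

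On the 6-4PP UV array 42 of the 64 pairs were brighter with the added t, against 30.8% of all pairs, and 11 were dimmer, against 33.6%. The 16 pairs with a listed CT and the 16 with a listed TT all became brighter, with medians of 2.44 and 1.11. AGCT went from 4830 ± 2088 (SD, 10 spots) in TBP_E60 to 32352 ± 3938 (SD, 10 spots) in TBP_E59, a difference of 2.74 with an adjusted p of 3.93e-05 by the exact permutation test. The 11 dimmer pairs all had a listed TC, whose tract became TCt, with a median of -0.42 over its 16 pairs. GATC fell from the ceiling in TBP_E60 to 38249 ± 4637 (SD, 10 spots) in TBP_E59. It fell by at least 0.78, with an adjusted p of 0.000206 by the exact permutation test.

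A c was put behind the listed tract in the step from TBP_59 to TBP_60. With CPD 0 of 64 pairs were brighter, against 0.391% of all pairs, and 8 were dimmer, against 14.6%, so both counts were near the background. Of the 8, 7 had a listed TT, whose 16 differences were all below 0 with a median of -0.55. A listed CT had a median of 0.27 with 0 of 16 pairs past the threshold in either direction. With the deposited spatial adjustment 25 pairs were dimmer, against 41.1% of all pairs, and 1 was brighter. In this step the probe became longer by 1 base, and length and added base cannot be told apart in this comparison or in that with t.

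With 6-4PP the added c made 46 of 64 pairs brighter, against 35.4% of all pairs, and 6 dimmer, against 46.6%. A listed CT, which became CTc and gained a TC step, rose in all 16 pairs with a median of 2.48, and 11 of the longer probes were at the ceiling. AGCT went from 15692 ± 3816 (SD, 10 spots) in TBP_59 to the ceiling in TBP_60, with 8 of 10 spots there. A listed TT rose in 15 of 16 pairs with a median of 1.29. The 6 dimmer pairs again all had a listed TC, with a median of -0.15.

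Leaving out the c before the core, as from TBP_E60 to TBP_59, lengthened the opposite tract. It also shortened the probe from 60 to 59 bases and moved the core by 1 base, and these changes cannot be told apart either. The step made 15 of 64 pairs brighter with CPD, against 11.8% of all pairs, and 0 dimmer, against 0.977%. Of the 15 pairs, 14 were among the 32 on the TBP backbone and 1 among the 32 on the MITF backbone. An opposite CT had the largest median, 0.74, and was above 0 in all 16 pairs, with 8 of 8 past the threshold on TBP and 0 of 8 on MITF. An opposite TT had a median of 0.77 on TBP, with 6 of 8 past it, and of -0.07 on MITF, with 0 of 8. With the deposited spatial adjustment 29 pairs were brighter, against 26.6% of all pairs. With 6-4PP 42 of 64 were brighter, against 29.2%, and 5 dimmer, against 28.5%. An opposite CT rose in all 16 pairs with a median of 1.96, and an opposite TT in 15 of 16 with a median of 0.96. An opposite TC had 3 brighter and 5 dimmer pairs and a median of -0.14, which was -0.29 on TBP and 0.13 on MITF. In all 3 comparisons with 6-4PP, CT had the largest median gain when its tract grew by 1 base. TC had the lowest median, below 0 on both backbones when the listed tract grew and on TBP alone when the opposite tract grew.

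With both tracts extended the 6-4PP order of the cores was far from that with neither extended. AGCT, the dimmest core there, had its median at the ceiling in all 7 libraries. AACT was at the ceiling in 6 of 7 libraries and AATT and AGTT each in 5. GATC had 36090 (29016.5 to 40125.5), below all of these, and the dimmest were GACC at 16876 (13590 to 20046) and GGTC at 17266 (11400.5 to 19271). The ranges of AGCT and GATC did not overlap in either class, and their order was opposite. Of the 50 probes at the ceiling, 37 were in this class.

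With CPD the 16 cores changed less in order. AATT was the brightest in each of the 4 classes, at 11399 with neither tract extended, 15119 with the listed tract extended, 13238 with the opposite tract extended and 9105 with both extended. GGCC was the dimmest in each, at 1852, 2332, 2120 and 2048 in the same order. AGCT moved most in place, from place 13 of 16 with neither tract extended to place 4 with both extended, where it had 6304 (4419.5 to 7734.5).

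The brightest probes with CPD were all AATT probes of 59 bases. TBP_E59_AATT had 17512 ± 2038 (SD, 10 spots), TBP_59_AATT 17028 ± 2247, TBP_MUT_E59_AATT 16208 ± 3037, TBP_MUT_59_AATT 14946 ± 2509 and MITF_Ex_sebox_59_AATT 14030 ± 1654. No test among these 5 was made. The first 3 were also the brightest on the CPD non-UV array, at 58.5, 58.5 and 54.5.

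The dimmest with CPD were MITF_sebox_60_AGCC at 1294 ± 2291, TBP_E60_GGCC at 1544 ± 616, TBP_E60_GACC at 1635 ± 1005, TBP_MUT_E60_GGCC at 1637 ± 543 and MITF_sebox_60_GGCC at 1661 ± 1060 (SD, 10 spots each). The SD of the first was larger than its median. The same probe was at the ceiling on the 6-4PP UV array, with 7 of 10 spots there.

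The dimmest with 6-4PP all held CT on the listed strand with neither tract extended. They were MITF_Ex_ebox_60_AGCT at 4311 ± 806, TBP_MUT_E60_AGCT at 4537 ± 2699, MITF_Ex_ebox_60_GGCT at 4647 ± 994, TBP_MUT_E60_GGCT at 4694 ± 1348 and MITF_Ex_sebox_60_AGCT at 4747 ± 3544 (SD, 10 spots each). They lay below the median of the names without a dipyrimidine, 4825. Below the ceiling the brightest were TBP_60_GATT at 65091, p53_E_mut_60_GATT at 64658, p53_mut_60_GGTT at 63823, p53_60_AATT at 63416 and TBP_MUT_60_AACT at 62880, each with 4 or 5 spots at the ceiling. The 50 probes at the ceiling have no order among themselves.

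The order of purines and pyrimidines was tested by exchanging the first 2 and the last 2 bases of the core, as from AGCT to CTAG, within the same library. This keeps the step on each strand of the core but places the pyrimidines first. On the 6-4PP UV array 302 of the 336 pairs differed, against 71.2% of all 2520 pairs exchanged in this way. On the CPD UV array 74 differed, against 23.6%. On the non-UV arrays 27 differed with CPD, against 6.83%, and 27 with 6-4PP, against 6.39%. With the deposited spatial adjustment 168 differed on the CPD UV array, against 50.0% of all pairs. The members' shares were thus near the background on every array except the 6-4PP UV array.

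The direction followed the outer bases. With neither tract extended the exchange makes both tracts longer, and the purines-first probe was the dimmer with 6-4PP, at a median of -1.72 over 96 pairs and below 0 in 87. With both tracts extended the exchange makes them shorter, and the median was 2.23 over 112 pairs and above 0 in 106. MITF_ebox_60 shows the second case.
MITF_ebox_60_AGCT: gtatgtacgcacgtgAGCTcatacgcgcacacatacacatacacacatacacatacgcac
MITF_ebox_60_CTAG: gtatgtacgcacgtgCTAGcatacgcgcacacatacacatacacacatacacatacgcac
The first was at the ceiling in all 10 spots and the second at 4001, a difference of at least 4.03 with an adjusted p of 3.06e-05 by the exact permutation test. MITF_sebox_60 gave at least 4.07 and p53_mut_60 at least 3.79 for the same cores. With CPD the medians of the 2 classes were -0.34 and 0.23. The largest CPD differences were 2.09 for TBP_59_AGCC over TBP_59_CCAG (6320 and 1484), 2.03 for MITF_Ex_sebox_59_GGCT over MITF_Ex_sebox_59_CTGG (7440 and 1818) and 1.78 for MITF_Ex_ebox_59_GGCT over MITF_Ex_ebox_59_CTGG (7826 and 2286).

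In 32 pairs, all in libraries with 1 tract extended, both probes held steps of the same types in the same numbers, though the tracts they form and the neighbours of the steps differed with the order. With 6-4PP 31 of the 32 passed the exact permutation test, against 51.0% of the 575 such pairs of all endings, and the purines-first probe was the dimmer in 24, with a median of -1.54 (range -2.95 to 1.47). With CPD 2 of the 32 passed, against 7.3%, and the median was -0.13. Without UV 2 passed with CPD, against 2.43%, and 1 with 6-4PP, against 4.17%. GATC was dimmer than TCGA in all 6 of its pairs, by a median of -0.86. GGTC was dimmer than TCGG in all 4, by -2.32, and AATC than TCAA in all 4, by -1.72.
TBP_E59_AGTC was given above, and its exchanged partner TBP_E59_TCAG was at the ceiling against 8822, a difference of -2.89 or larger in size, with an adjusted p of 3e-05 by the exact permutation test. Both probes hold 1 TC and 2 CT steps. With CPD the same probes had 2678 and 2379, a difference of 0.17 with an adjusted p of 0.86 by the exact permutation test. The 8 pairs with the purines-first probe brighter were those of AGCC, AGCT and AGTT, with 2 each, and 2 of the 6 of AGTC.

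Finally each probe was set beside other probes of its library that held steps of the same types in the same numbers. For 330 of the 336 there were such matches, at least 2 each. The median difference was -0.05 with CPD and 0.00 with 6-4PP, so over all members the level was that of other arrangements of the same steps. By core and class it was not. With neither tract extended and 6-4PP, GATC was above its matches by a median of at least 1.09 in 4 of 4 probes. GGCC was below them by -0.79 in 6 of 6, and AGCT by -0.48 in 4 of 4. With both tracts extended and 6-4PP, these directions turned. GATC then differed by -0.80, below 0 in 7 of 7, while GGCC was at 0.88 and AGCT at 0.89, each above 0 in 7 of 7. Over all classes GATC differed by -0.41, below 0 in 13 of 19. With CPD, AATT was above its matches by 0.66 in 6 of 6 probes with neither tract extended, and with both extended the difference was -0.38, below 0 in 7 of 7. Over all classes AACC differed from them by -0.68, below 0 in 19 of 19.

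Over all 92 matched probes with neither tract extended the 6-4PP median was -0.46, with 60 below 0, and over the 110 with both extended it was 0.64, with 78 above 0. The corresponding CPD medians were -0.08 and -0.02. These matches differ in the place of the steps as well as in their neighbours, and no test was run on them.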

How the data were processed

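The deposited files give, per the file headers, the fluorescence intensity of each spot on a linear scale, the intensity without flagged spots, the median intensity around the spot and a spatially adjusted intensity. No step before these columns is stated there. The analysis used the intensity with flagged spots blank and no spatial adjustment. It equalled the raw intensity at every unflagged spot, so the amount of DNA in a spot was not corrected for. The adjusted intensity, which equals the unadjusted one times a constant of the array over the local median, was run as an alternative, because local medians ran from 1111 to 8004 on the CPD UV array.

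Arrays were grouped by the condition field of the labels and were not normalized to each other. A probe's value was the median of its unflagged spots, 7 to 10 per array. Dipyrimidine steps were counted on both strands without the 10 bases at the 3′ end that all probes share. Differences between probes of an array were tested with an exact two-sided permutation of the mean log2 intensity of spots, adjusted by the Benjamini-Hochberg method over all such pairs of the array, at 0.05. The p-values measure the spread of spots on 1 array. Calculations used Python 3.11.15 with NumPy 2.4.6, pandas 2.3.3 and SciPy 1.17.1, and the test was tested on simulated data. The text names all 16 cores, on each UV array the 5 brightest and 5 dimmest probes, and the 3 mirror pairs and 3 order pairs with the largest differences past the threshold. Probes printed as examples of the design were chosen after their values were seen.

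The probes and comparisons were chosen with earlier results of these data known. The 1-base comparison was added after the files had been seen. Alternatives changed the intensity column, the spot summary, flagged spots, repeated sequences, probe length, backbone, ceiling, background level, dim probes and the size of a call. The 48 probes printed under a second name differed between names by a median of 0.20 on the log2 scale for CPD with UV and 0.06 for 6-4PP with UV. The largest differences were 1.25 and 0.34. With CPD 41 of the 48 differed by under 0.5, and with 6-4PP all 48.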

Additional observations from a re-analysis of the deposited data

Results flagged for a closer look

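Some type differences had opposite signs with the 2 antibodies on the UV arrays, in every library of a class. The values are means over libraries on the log2 scale. With neither tract extended, CT minus CC on the listed strand was 0.30 with CPD and -0.32 with 6-4PP in 6 libraries. TT minus TC on the listed strand was 1.02 with CPD and -0.51 with 6-4PP in the same libraries, and on the opposite strand it was 0.34 and -0.56. With the listed tract extended, TT minus TC on the opposite strand, whose tract was not extended, was 0.32 with CPD and -0.54 with 6-4PP in 4 libraries. With the opposite tract extended, CT minus CC on the listed strand was 0.23 and -0.30, and TT minus TC was 0.88 and -0.58, again in 4 libraries. In each case the strand had a tract of 2 pyrimidines. The difference between the antibodies was not tested, since each antibody had 1 UV array and its own dilution.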

How the results depend on the processing

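Of 326 alternatives for 40 results, 283 stayed within the spread over probes or libraries or, for a share or count of calls, within 1.5 times. All 96 alternatives for the TT and TC effects kept their direction. The CPD effect of listed TT over CC was 1.52, and it was 1.20 by the ratio of the UV over the non-UV array and 1.03 with probes above background alone, where TC over CC was 0.21. With the titles of the 6-4PP arrays the UV minus non-UV difference turned to -8.67.

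The share of pairs called moved most. With the spatially adjusted intensity, mirror pairs called were 30.2% for CPD without UV and 59.5% for CPD with UV, from 11.1% and 35.7%, and order pairs 16.4% and 50.0%, from 8.04% and 22.0%. The adjustment lowers the median SD of spots on the CPD UV array to 0.30. In the 1-base comparison on that array, an alternative chosen after seeing the data, 48 pairs were then brighter with an added t, 1 brighter and 25 dimmer with an added c, and 29 brighter and 1 dimmer with the opposite tract lengthened.

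Libraries of 59 bases have 1 tract extended, and those of 60 bases neither or both. With 59 bases alone, mirror pairs called were 22.9% (CPD non-UV), 60.4% (CPD UV), 22.9% (6-4PP non-UV) and 89.6% (6-4PP UV), order pairs 12.5% (CPD non-UV), and probes above background 43.8% (6-4PP non-UV). With 60 bases alone, mirror pairs were 23.1% (CPD UV), 5.13% (6-4PP non-UV) and 38.5% (6-4PP UV), order pairs 4.81% (CPD non-UV), and probes above background 12% (6-4PP non-UV). The cause of the moves that follow was not tested. Without MITF, 9.90% of probes were above background and 3.12% of order pairs were called (6-4PP non-UV). Without TBP, mirror pairs were 6.41% and order pairs 3.85% (CPD non-UV). With the 99th percentile 11.0% of probes were above background (6-4PP non-UV).

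Requiring a difference of at least 1 on the log2 scale left mirror pairs at 0%, 16.7%, 0% and 23.0% in the order CPD non-UV, CPD UV, 6-4PP non-UV and 6-4PP UV, and order pairs at 0.298%, 6.85% and 0% on the first 3. With only order pairs of equal steps tested and adjusted, 0% of the 32 pairs were called for CPD with UV and 3.12% for 6-4PP without UV. With probes above background alone, mirror pairs were 25.3%, 56.6% and 27.7% (CPD non-UV, CPD UV, 6-4PP non-UV), and order pairs 15.4% (CPD non-UV) and 24.4% (6-4PP non-UV).

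No paired analysis was possible because each group had 1 array. Subtraction of a local background was not run, since the columns used hold no separate local background. The ceiling bounds the brightest 6-4PP values, and the number of arrays limits all comparisons with UV.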
